A study of Mus musculus with 6 samples.

Results

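The genes of G2 and mitosis were followed in C17.2, a multipotent neural stem cell line from mice (CD1 x C57BL/6) that was immortalised with v-myc. The set was 40 named genes of mitotic entry, the spindle checkpoint, kinetochores, the spindle and cytokinesis, chosen by name from a list. Of these, 37 were found among the 7171 loci of the deposited expression table. Bub1 and Ttk, both spindle checkpoint kinases, and Kif20b, a kinesin of cytokinesis, were not analysed here. The 37 loci held 86 of the 15113 listed transcripts, and all 37 passed the filter on low values (at least 1 FPKM in at least 2 libraries). FPKM, the deposited unit, corrects fragment numbers for transcript length and library size, and a locus value is the sum over its listed transcripts.

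RNA was sequenced from heme-treated cells, from cells cultured for neural induction, and from control cells, with 2 replicates per group in the labels. Neural induction used Knockout DMEM with GlutaMAX, N2 supplement and the neurotrophin BDNF at 10 ng/ml. Control cells were kept in DMEM/F12 with 10% fetal bovine serum. The sources used here give neither the dose, time and medium of the heme treatment nor the length of induction. All groups are 1 cell line, and the p-values measure the spread between these cultures or libraries, which may be technical. The second heme column was the first multiplied, transcript by transcript, by a factor between 1.25 and 1.5, so heme was counted as 1 library and 5 libraries were compared. These held 4.14 to 4.56 gigabases of mapped sequence each. Of 10 progenitor markers, 6 were listed, with a sum between 930 and 1048 FPKM. Among them, Nes, the progenitor intermediate filament nestin, lay between 108 and 131 FPKM, and Vim, vimentin, between 664 and 798 FPKM. Of 12 neuronal markers only Map2 and Tubb3 were listed, and no astrocyte, microglial or erythroid marker was. Of 6 oligodendrocyte markers 2 were listed, with a sum between 105 and 121 FPKM. Unlisted genes have no value here, so being unlisted does not show that a marker was absent from the cells. In a bulk culture, fewer cells in G2 or mitosis and less of these RNAs per cell cannot be told apart.

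Cells build up the products of these genes late in the cycle and destroy many of them when mitosis ends. CDK1 with cyclins A and B drives entry, the checkpoint holds cells until chromosomes are attached, and the anaphase-promoting complex then marks cyclin B and securin for destruction. Transcription of the group is held back in quiescence and in early cycle phases by the DREAM complex and switched on by B-Myb with MuvB and by FoxM1. MuvB binds a promoter element known as the CHR, most often TTTGAA, and NF-Y binds CCAAT boxes, which lie in many of the same promoters.

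No gene of the group passed the test in any comparison. In 1 control library, replicate 2, nearly all of them were lower than in every other library, whether heme, neural induction or control. Summed over the 37 loci, the level was 1356 FPKM in heme, 1400 and 1395 FPKM in the neural induction replicates, 1421 FPKM in control replicate 1 and 1015 FPKM in control replicate 2. Control replicate 2 was the lowest of the 5 libraries for 32 of the 37 genes, whereas it was lowest for 32.3% of the 7039 loci tested. Its median over the genes was 0.689-fold of the median of the other 4 libraries, on the log2(FPKM + 1) scale, against 0.991-fold over all loci. Heme was the lowest of the 5 for Birc5 and Ect2 (background 19.7%). The heme library, both neural induction libraries and control replicate 1 differed little among themselves: the highest over the lowest of these 4 had a median of 1.11 for the group and 1.18 for all loci.

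**Figure D1:**
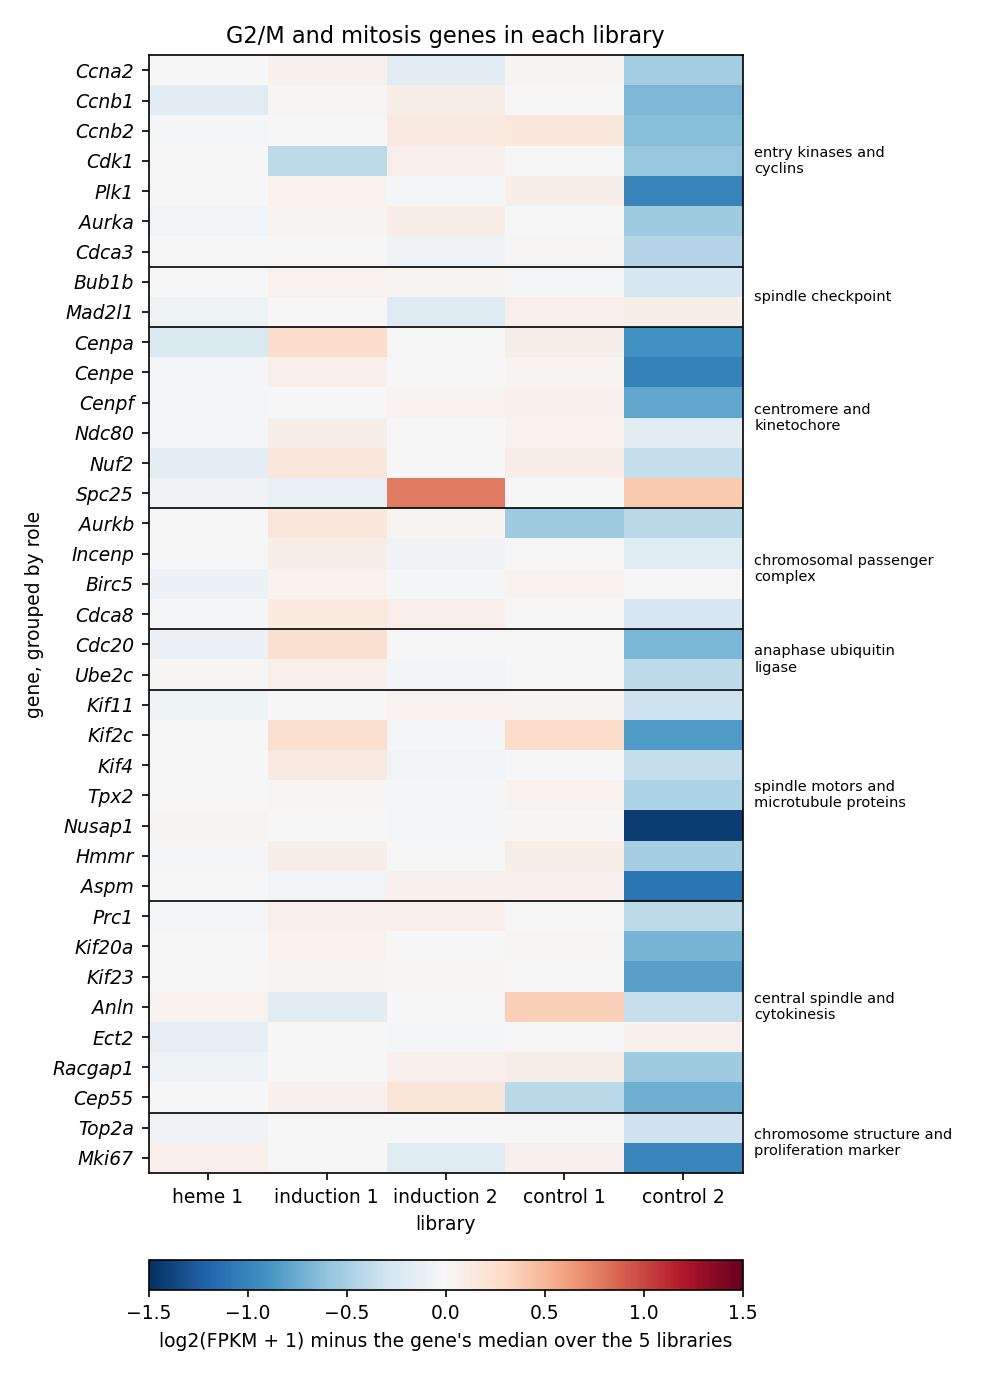
Level of each of the 37 genes (rows, grouped by role) in each library (columns), as log2(FPKM + 1) minus the gene's median over the 5 libraries; blue is lower and red is higher. The column of control replicate 2 is blue in nearly every row, and Spc25, Mad2l1 and Ect2 are the rows above their median there.

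Promoters of the group share sequence features that did not enter the choice of genes. Among 35 RefSeq promoter windows (GRCm38.p6, 250 bases before to 50 after the start) of 32 of the genes, 29 windows (82.9%) held TTTGAA on either strand, against 17.9% of all 32851 windows of that length. CCAAT, on either strand, was in 26 windows (74.3%) against 37.4%, and both motifs were in 24 windows (68.6%) against 6.95%. The CCAAT matches lay mostly before the start, at a median position of -74.5 relative to it, and the TTTGAA matches lay around it, at a median position of 4. The 150 bases before the start are printed for genes chosen to show the range. Mki67 (chr7:135716380-135716529, minus strand), Cdk1 (chr10:69352913-69353062, minus strand) and Cdc20 (chr4:118437344-118437493, minus strand) hold both motifs, and Ccnb1 (chr13:100786487-100786636, minus strand) holds CCAAT alone. Nusap1 (chr2:119618148-119618297, plus strand) and Mad2l1 (chr6:66535071-66535220, plus strand) hold neither anywhere in the 300-base window. Capitals mark TTTGAA (or its reverse complement TTCAAA) and CCAAT (or ATTGG), and they do not overlap in these stretches.
Mki67: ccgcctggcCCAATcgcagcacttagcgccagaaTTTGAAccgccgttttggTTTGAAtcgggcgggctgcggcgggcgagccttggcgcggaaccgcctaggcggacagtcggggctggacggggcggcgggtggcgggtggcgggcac
Cdk1: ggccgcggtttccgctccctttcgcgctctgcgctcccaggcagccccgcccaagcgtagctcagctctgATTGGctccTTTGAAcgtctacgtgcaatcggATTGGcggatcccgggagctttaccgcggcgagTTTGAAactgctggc
Cdc20: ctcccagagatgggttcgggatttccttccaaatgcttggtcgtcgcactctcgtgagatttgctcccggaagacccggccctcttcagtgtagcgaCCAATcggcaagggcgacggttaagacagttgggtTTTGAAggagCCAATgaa
Ccnb1: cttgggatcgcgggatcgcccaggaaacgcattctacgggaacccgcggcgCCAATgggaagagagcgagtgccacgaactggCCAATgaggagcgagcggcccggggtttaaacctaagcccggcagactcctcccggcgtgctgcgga
Nusap1: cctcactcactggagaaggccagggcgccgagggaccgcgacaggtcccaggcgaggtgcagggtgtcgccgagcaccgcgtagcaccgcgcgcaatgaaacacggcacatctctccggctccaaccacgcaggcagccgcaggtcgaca
Mad2l1: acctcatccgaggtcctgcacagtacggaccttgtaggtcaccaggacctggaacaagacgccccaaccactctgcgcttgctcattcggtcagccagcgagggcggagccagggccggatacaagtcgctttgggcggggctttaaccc
Nusap1, with neither motif, had the lowest value in control replicate 2 relative to the other libraries (0.334-fold), and Mad2l1, also with neither, was 1.09-fold there. Of the genes lowest in control replicate 2, 24 of 28 with a promoter window held TTTGAA and 22 of 28 held CCAAT. Of the remaining genes, 2 of 4 held TTTGAA and 2 of 4 held CCAAT. A match describes letters in a window and not a bound site.

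Among the kinases and cyclins of mitotic entry, all 7 genes were lowest in control replicate 2. Cdk1, the kinase that drives entry (chr10:69336635-69352938, minus strand), had 129 FPKM in heme, 97.9 and 136 FPKM in neural induction, and 128 and 86.4 FPKM in control. Each replicated group had a low library, and these groups overlapped. Heme was narrowly above the higher control. Ccnb1, cyclin B1, had 30.6 FPKM in heme, 34.96 and 36.72 FPKM in neural induction, and 34.6 and 21.4 FPKM in control. Both neural induction libraries were above both controls, the first of them narrowly, and heme lay between the controls. Plk1, the polo-like kinase of centrosome maturation and mitotic exit, had 51.6 FPKM in heme, 53.7 and 50.5 FPKM in neural induction, and 55.0 and 25.3 FPKM in control. Only control replicate 2 stood away from the others, at 0.481-fold of their median. Ccna2 (cyclin A2), Ccnb2 (cyclin B2), Aurka (Aurora A kinase of the spindle poles) and Cdca3 (a cofactor in the destruction of the kinase WEE1) were 0.681-, 0.600-, 0.672- and 0.727-fold of the others in control replicate 2. By limma, the log2 fold change of Plk1 was 0.46 ± 0.46 (SE) in heme and 0.47 ± 0.37 in neural induction against control, with adjusted p of 0.998 and 0.935. That of Ccnb1 was 0.17 ± 0.29 and 0.38 ± 0.24, and that of Cdk1 was 0.29 ± 0.31 and 0.13 ± 0.25.

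The checkpoint genes did not move together. Bub1b, which encodes the checkpoint kinase-like protein BUBR1, had 32.2 FPKM in heme, 33.5 and 33.0 FPKM in neural induction, and 31.6 and 26.9 FPKM in control. Every heme and neural induction library was above both controls, though close to control replicate 1. Mad2l1, the checkpoint protein MAD2, had 28.1 FPKM in heme, 29.8 and 26.0 FPKM in neural induction, and 31.4 and 31.7 FPKM in control. Every heme and neural induction library was below both controls, the reverse of Bub1b. Its log2 fold change was -0.16 ± 0.13 in heme and -0.17 ± 0.11 in neural induction, with limma adjusted p of 0.998 and 0.935.

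Of 6 centromere and kinetochore genes, 5 were lowest in control replicate 2. Cenpf, a kinetochore protein of G2 and mitosis, had 6.61 FPKM in heme, 6.72 and 7.01 FPKM in neural induction, and 7.10 and 3.48 FPKM in control. Control replicate 1 was the highest library and control replicate 2 the lowest. In control replicate 2, Cenpe, the kinetochore kinesin that gathers chromosomes, was 0.451-fold of the median elsewhere, and Cenpa, the centromeric histone H3 variant, was 0.470-fold. The NDC80 complex ties microtubules to the kinetochore. The 3 of its genes in the group were nearer to the other libraries than Cenpf, Cenpe and Cenpa were, or above them. Ndc80 was 0.869-fold, Nuf2 0.745-fold and Spc25 1.38-fold in that library. Spc25 had 9.35 FPKM in heme, 8.90 and 17.4 FPKM in neural induction, and 9.72 and 13.1 FPKM in control. Neural induction replicate 2 was the high library, and neural induction overlapped control. Heme was below both controls, narrowly below the lower of them. Its log2 fold change was -0.25 ± 0.43 in heme and 0.14 ± 0.35 in neural induction.

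The chromosomal passenger complex corrects faulty attachments and then directs cytokinesis, and its kinase gave the smallest p-value of the group. Aurkb, Aurora B kinase, had 19.8 FPKM in heme, 22.5 and 20.4 FPKM in neural induction, and 13.3 and 14.8 FPKM in control. All heme and neural induction libraries were above both controls, and unlike most of the group the lowest library was control replicate 1. Neural induction averaged 21.5 ± 1.48 FPKM and control 14.1 ± 1.01 FPKM (SD, n = 2 each). The log2 fold change was 0.47 ± 0.15 in heme (limma adjusted p = 0.998) and 0.58 ± 0.12 in neural induction (limma adjusted p = 0.935). Its partners were closer between groups. Birc5, survivin, had 88.7 FPKM in heme, 98.2 and 93.0 FPKM in neural induction, and 98.7 and 94.7 FPKM in control, with heme the lowest library. Cdca8, borealin, had 31.1 FPKM in heme, 34.9 and 33.1 FPKM in neural induction, and 31.4 and 26.1 FPKM in control, so that both neural induction libraries were above both controls. Incenp, the scaffold of the complex, was 0.880-fold of the others in control replicate 2. The log2 fold change of Cdca8 in neural induction was 0.24 ± 0.12, and that of Birc5 in heme was -0.12 ± 0.09.

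For the anaphase ubiquitin ligase, Cdc20, the activator that starts anaphase, had 40.1 FPKM in heme, 49.9 and 42.5 FPKM in neural induction, and 42.8 and 26.1 FPKM in control. Control replicate 2 was low and the groups overlapped. Ube2c, its ubiquitin-conjugating enzyme, was 0.752-fold of the others in control replicate 2, at 64.6 FPKM. The log2 fold change of Cdc20 was 0.25 ± 0.31 in heme and 0.45 ± 0.26 in neural induction, with limma adjusted p of 0.998 and 0.935.

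All 7 spindle motors and microtubule proteins were lowest in control replicate 2, and the group held the 2 genes farthest from the other libraries. Nusap1, a spindle microtubule bundler, had 17.2 FPKM in heme, 16.8 and 16.5 FPKM in neural induction, and 16.9 and 5.63 FPKM in control. Aspm, a spindle pole protein whose loss causes microcephaly in humans, had 5.45 FPKM in heme, 5.29 and 5.75 FPKM in neural induction, and 5.72 and 2.01 FPKM in control. For both genes 4 libraries lay close together and 1 stood apart. Kif11, the kinesin that pushes spindle poles apart, had 25.1 FPKM in heme, 26.4 and 27.5 FPKM in neural induction, and 27.1 and 21.0 FPKM in control, with control replicate 2 again the lowest. The microtubule-depolymerising kinesin Kif2c was 0.484-fold of the others in control replicate 2, Hmmr, a spindle assembly protein, 0.680-fold, Tpx2, the activator of Aurora A, 0.711-fold, and the chromokinesin Kif4 0.7599-fold. The log2 fold change of Nusap1 was 0.74 ± 0.61 in heme and 0.69 ± 0.49 in neural induction, and that of Aspm was 0.52 ± 0.55 and 0.53 ± 0.45, with limma adjusted p of 0.998 and 0.935 for both genes. That of Kif11 was 0.07 ± 0.18 and 0.17 ± 0.15.

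Among 7 genes of the central spindle and cytokinesis, 6 were lowest in control replicate 2. Cep55, which recruits the abscission machinery to the midbody, had 12.2 FPKM in heme, 12.8 and 14.1 FPKM in neural induction, and 8.98 and 6.95 FPKM in control. All heme and neural induction libraries were above both controls, as for Aurkb. Its log2 fold change was 0.57 ± 0.22 in heme (limma adjusted p = 0.998) and 0.69 ± 0.18 in neural induction (limma adjusted p = 0.935). Ect2, the exchange factor that activates RhoA for the contractile ring, had 31.4 FPKM in heme, 34.4 and 34.0 FPKM in neural induction, and 34.5 and 36.0 FPKM in control. Heme was the lowest library and control replicate 2 the highest. Kif23, a motor of the central spindle, was 0.551-fold of the others in control replicate 2, Kif20a, another such motor, 0.602-fold, and Racgap1, the partner of Kif23, 0.672-fold. Prc1, the bundler of antiparallel microtubules, was 0.735-fold and Anln, the ring scaffold anillin, 0.770-fold. The log2 fold change of Ect2 was -0.16 ± 0.10 in heme and -0.04 ± 0.08 in neural induction.

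Top2a, the topoisomerase that untangles sister chromatids (chr11:98992943-99024189, minus strand), had 83.9 FPKM in heme, 87.7 and 87.2 FPKM in neural induction, and 87.3 and 70.0 FPKM in control. Mki67, the proliferation marker that coats mitotic chromosomes (chr7:135689788-135716379, minus strand), had 33.8 FPKM in heme, 32.1 and 28.2 FPKM in neural induction, and 33.5 and 15.7 FPKM in control. In both genes control replicate 2 was low, by a larger ratio for Mki67 (0.479-fold of the others) than for Top2a (0.802-fold). The log2 fold change of Mki67 was 0.54 ± 0.45 in heme and 0.37 ± 0.37 in neural induction, and that of Top2a was 0.10 ± 0.15 and 0.16 ± 0.12, with limma adjusted p of 0.998 and 0.935 for both genes.

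**Figure D2:**
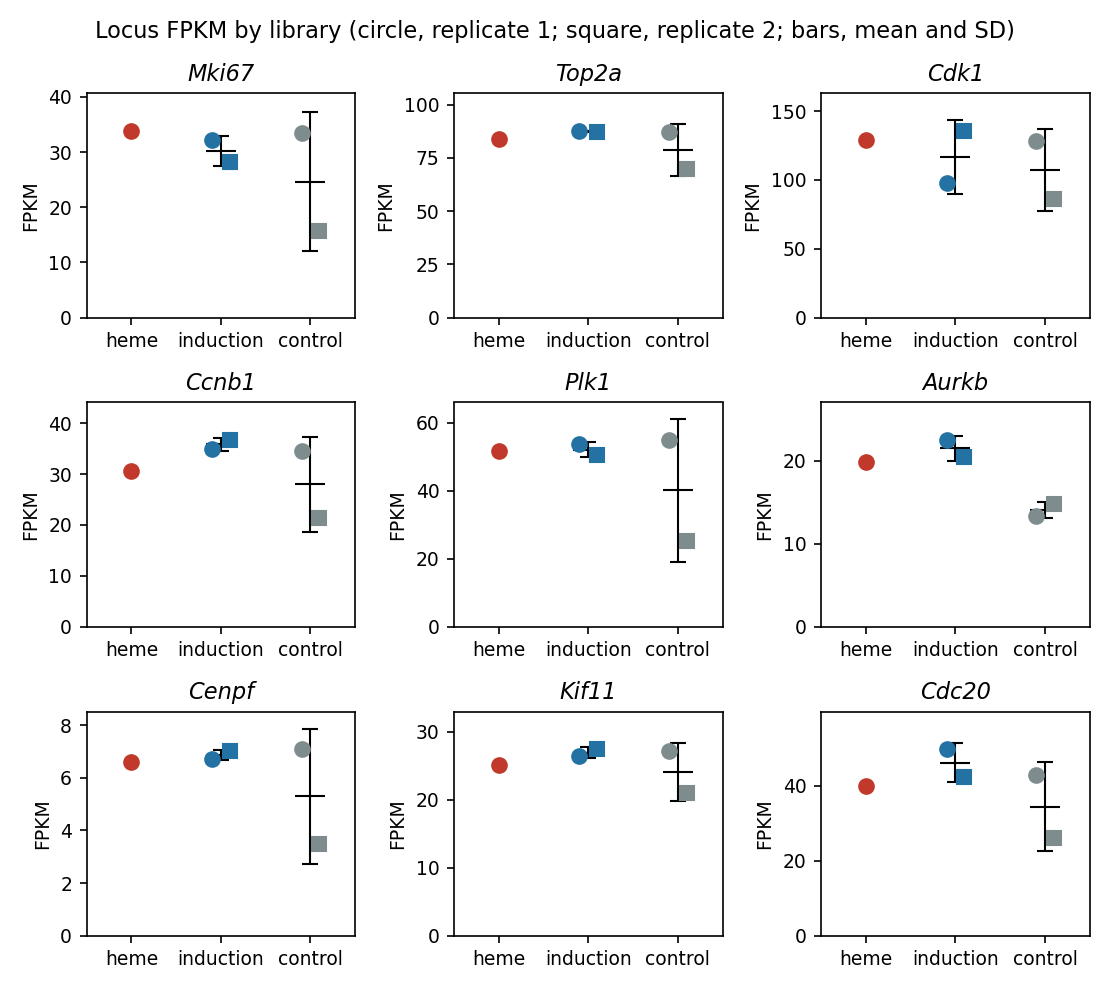
Locus FPKM of 9 genes in each library (circles, replicate 1; squares, replicate 2), with the mean and SD of the replicated groups as bars; each vertical axis starts at 0. In 8 of the panels the control square is the lowest point, and in the Aurkb panel both control points lie below all others.

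Against control, heme gave 0 called genes of 37 in either direction by limma, where 0.0426% of all loci were called (3 loci, all lower). At an unadjusted p below 0.05, 1 gene (Aurkb) was counted, 2.70% of the group against 3.59% of all loci. Log2 fold changes were above 0 for 32 of the 37 genes, against 49.2% of all loci, with a median of 0.21 against -0.0035. Without control replicate 2, they were above 0 for 7 of the 37 genes, against 44.3% of all loci, and the median was -0.06. Heme was above both controls for 7 genes (background 25.5%): Cdk1, Bub1b, Aurkb, Ube2c, Nusap1, Mki67 and Cep55. It was below both for 4 genes (background 31.1%): Mad2l1, Spc25, Birc5 and Ect2.

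Neural induction against control also gave 0 called genes, where 0.0142% of loci (1 locus, lower) were called, and 2 genes (Aurkb and Cep55) at an unadjusted p below 0.05, against 3.05% of loci. Log2 fold changes were above 0 for 33 of the 37 genes, against 54.7% of all loci, with a median of 0.25 against 0.02. Without control replicate 2 the count was 16 of 37, against 51.9% of loci, and the median was -0.0081. Both neural induction libraries were above both controls for 8 genes (background 18.2%): Ccnb1, Aurka, Bub1b, Aurkb, Cdca8, Prc1, Kif23 and Cep55. They were below both for Mad2l1 and Ect2 (background 13%). The comparisons share the control libraries, so the same low library enters both.

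**Figure D3:**
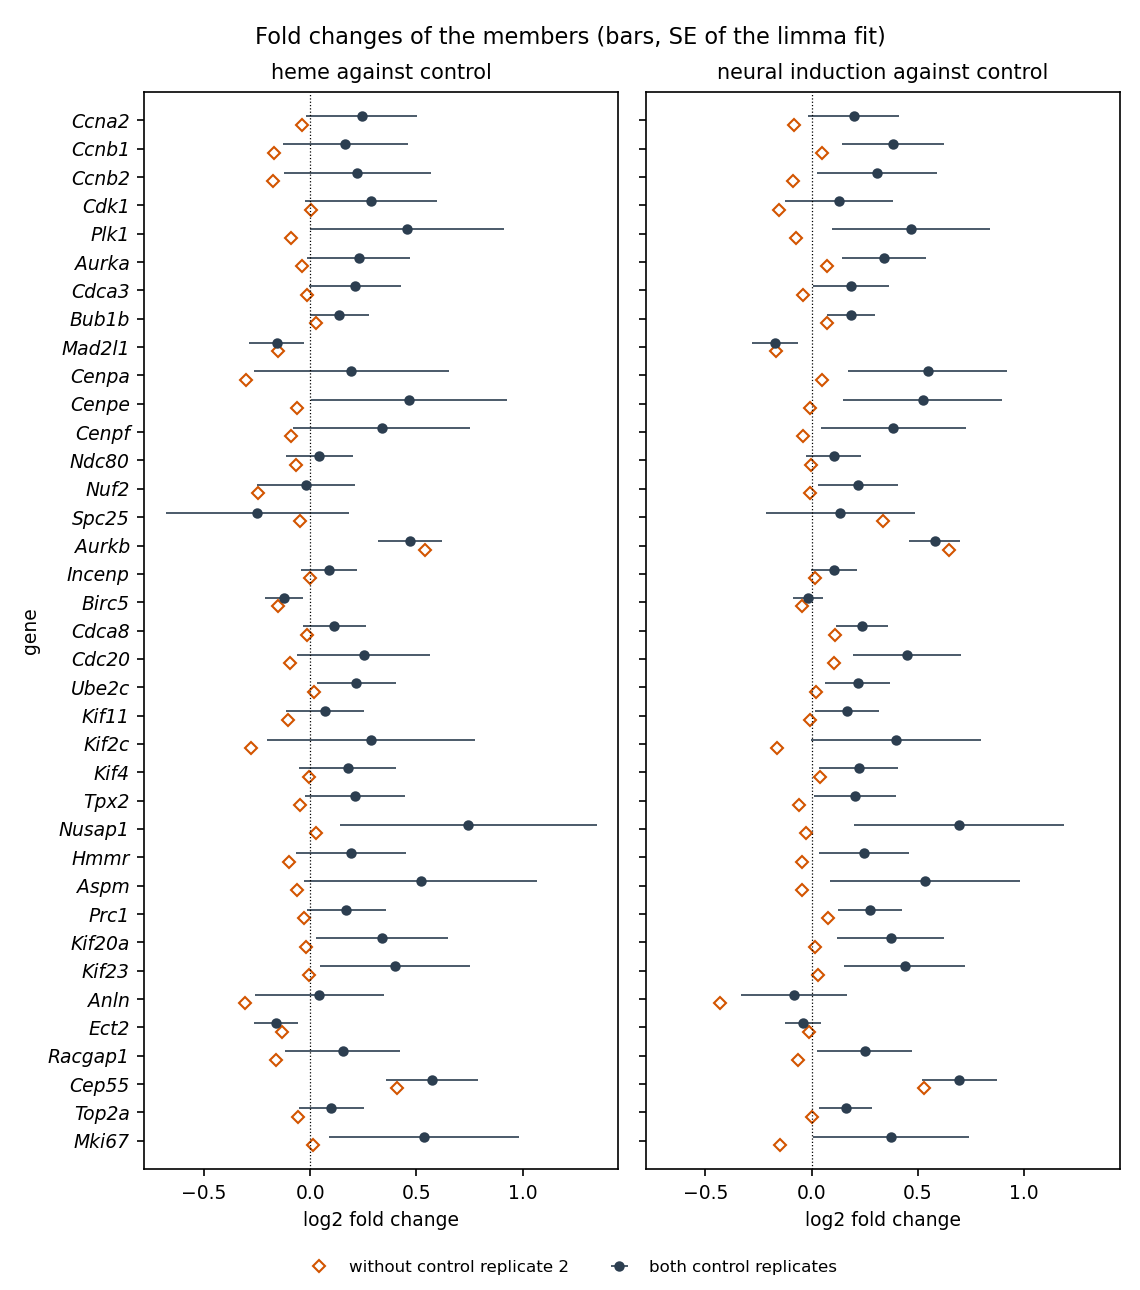
Log2 fold change of each gene in heme (left) and neural induction (right) against control, with both control replicates (filled circles, bars are the SE of the limma fit) and without control replicate 2 (open diamonds). Most circles lie right of 0 and most diamonds lie near or left of it, while both symbols of Aurkb and Cep55 lie to the right in both panels.

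Heme against neural induction gave 0 called genes in either direction, where 0.0568% of loci were called. At an unadjusted p below 0.05 it gave 0, against 3.38% of loci. Its fold changes do not use the control levels, but its SE does use the spread between the control replicates, through the shared fit. For Nusap1 the SE was 0.605 both here and in heme against control. The low control replicate 2 therefore enters this test too. Heme was below both neural induction libraries for 22 genes (background 40.3%) and above both for Nusap1, Mki67 and Anln (background 27.3%). Log2 fold changes were above 0 for 9 of the 37 genes, against 43.1% of loci, with a median of -0.06 against -0.02. Nuf2, with 20.0 FPKM in heme against 25.3 and 22.4 FPKM in neural induction, had a log2 fold change of -0.24 ± 0.23. Those of Ect2 and Birc5 were -0.12 ± 0.10 and -0.11 ± 0.09, and the limma adjusted p was 1.0 for all 3 genes. Leaving control replicate 2 out, heme was the lowest of the 4 other libraries for 19 of the 37 genes, against 29.3% of loci, with a median difference of -0.06 on the log2 scale from control replicate 1.

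Library by library, the group was close in 4 libraries and distant in 1. The median absolute difference of the genes between any pair among heme, the neural induction replicates and control replicate 1 was 0.06 to 0.09 on the log2 scale. With control replicate 2 it was 0.47 to 0.54, while over all loci the same 2 ranges were 0.09 to 0.12 and 0.18 to 0.21. In these 4 libraries 27 of the 37 genes stayed within 1.2-fold, against 51.4% of loci, and Kif23 had the smallest range, 27.4 FPKM in heme, 28.5 and 27.9 FPKM in neural induction, and 27.6 FPKM in control replicate 1. Spc25, Aurkb and Cep55 had the largest, at 1.96-, 1.69- and 1.56-fold. Within control replicate 2, 7 genes were below 0.5-fold of the other libraries: Nusap1, Aspm, Cenpe, Cenpa, Mki67, Plk1 and Kif2c. Whether a culture, a library or a sampling difference lies behind this library was not tested.

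Other lists of mitotic genes had medians of 0.922- to 1.13-fold in control replicate 2. A list of 64 other tested G2/M and mitosis loci had a median of 1.01-fold, with 30 loci below and 34 above the median of the rest, and 25 the lowest and 23 the highest of the 5 libraries. Ckap2l, a spindle protein, had 14.4 FPKM there against 25.6 to 27.1 FPKM in the other libraries, and Ccnf, cyclin F, 9.97 against 17.97 to 19.57 FPKM. Nek2, a centrosome kinase of late G2, went the other way, with 12.3 against 6.56 to 7.57 FPKM. The median was 1.13-fold for 15 condensin and cohesin loci, where the condensin subunit Ncapd2 was at 16.1 against 27.6 to 31.7 FPKM and its partner Ncapg at 30.6 against 20.4 to 24.1 FPKM. It was 0.922-fold for 14 loci of the anaphase-promoting complex, among them its activator Fzr1 at 12.04 against 16.2 to 17.5 FPKM. These examples were chosen after their values were seen.

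Lists of G1/S and DNA replication, of CDK inhibitors and p53 targets, and of the heme and NRF2 response had higher medians in the same library. The 37 tested loci of G1/S and DNA replication had a median of 1.2-fold, with 30 above the median of the rest and 28 the highest of the 5. Among the 7 below it were the D cyclins Ccnd1, Ccnd2 and Ccnd3, at 0.904-, 0.875- and 0.697-fold. Cyclin E1 (Ccne1) at 0.824-fold and the kinase Cdk4 at 0.92-fold were also below it. Rrm2, a subunit of ribonucleotide reductase, had 75.8 FPKM there against 45.6 to 52.9 FPKM, and Ccne2, cyclin E2, 24.6 against 13.5 to 15.1 FPKM. CDK inhibitors and p53 targets had a median of 1.21-fold, with 15 of 17 above the median of the rest and 13 the highest of the 5. The loci below it were both CDK inhibitors. Cdkn2d had 4.2 FPKM in control replicate 2 against 7.5 to 8.7 FPKM, and Cdkn2a 73.0 against 76.1 to 93.8 FPKM. Cdkn1a, the inhibitor p21, had 62.1 FPKM in control replicate 2 against 30.0 to 33.4 FPKM, and Mdm2, the ligase that limits p53, 169 against 84.9 to 93.1 FPKM. All 22 loci of the heme and NRF2 response list were above the median of the other libraries, 20 of them above every other library, with a median of 1.48-fold. The list includes Hmox1, heme oxygenase 1, at 222 FPKM in control replicate 2. In the heme library the same list had a median of 0.964-fold of the other libraries, with 16 loci below and 6 above their median. The high levels of these lists in control replicate 2 moved with the low mitosis genes there. Their part in that difference was not tested.

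**Figure D4:**
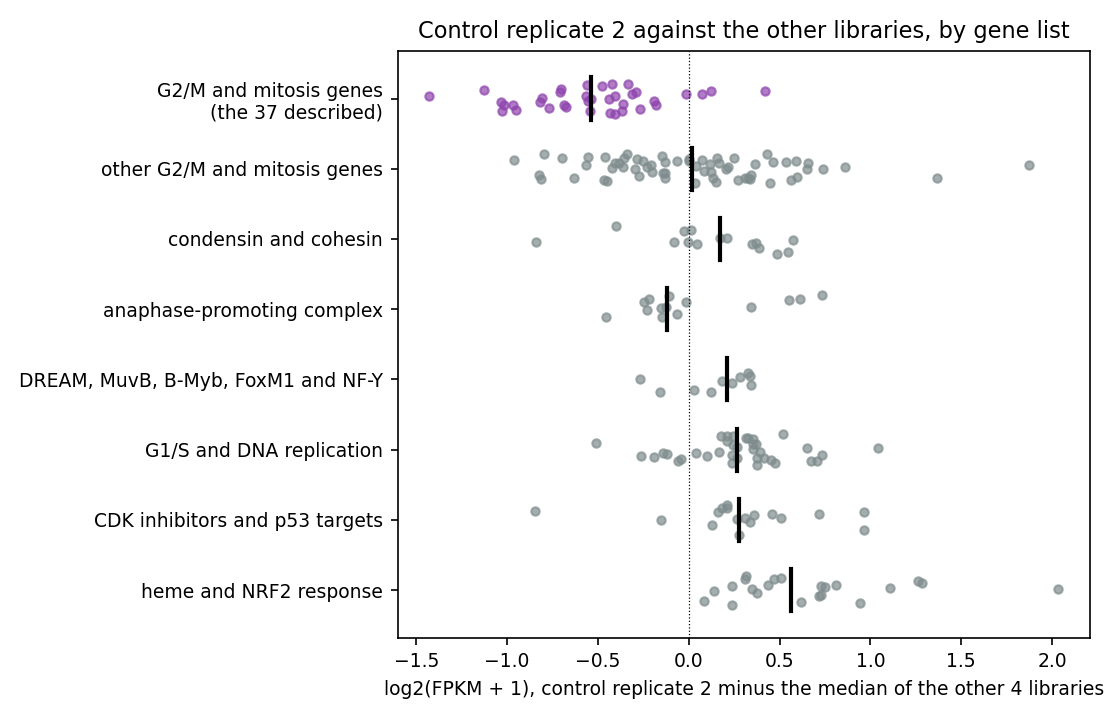
Control replicate 2 minus the median of the other 4 libraries, as log2(FPKM + 1), for the loci of each gene list (points, jittered vertically) with the list median (bar). The 37 genes of the described group lie left of 0 except Spc25, Mad2l1 and Ect2, while G1/S, p53-target and NRF2 loci lie mostly to the right.

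The regulators of the group were measured at 10 loci. Foxm1 had 19.8 FPKM in heme, 16.2 and 15.7 FPKM in neural induction, and 16.2 and 14.4 FPKM in control, with heme highest and control replicate 2 lowest. Mybl2, B-Myb, had 21.7 FPKM in heme, 22.9 and 22.2 FPKM in neural induction, and 21.8 and 27.8 FPKM in control, with control replicate 2 highest. Of the MuvB subunits, Lin9 was 1.31-fold, Lin37 1.41-fold, Lin54 1.24-fold and Rbbp4 1.09-fold of the others in control replicate 2. The DREAM factors E2f4 and Tfdp1 were 1.14- and 1.18-fold. Of the NF-Y subunits, Nfyb was 1.02-fold and Nfyc 0.818-fold, with 18.4 FPKM in heme, 17.1 and 16.6 FPKM in neural induction, and 14.2 and 13.8 FPKM in control. All heme and neural induction libraries were above both controls for Nfyc, with a log2 fold change of 0.37 ± 0.14 in heme (limma adjusted p = 0.998). Over the 199 loci of all lists other than the described group, which include cell-type markers and mitochondrial DNA genes, 0 were called by limma in each comparison. At an unadjusted p below 0.05 there were 4 in heme against control (2.01%, against 3.59% of all loci), 8 in neural induction against control (4.02%, against 3.05%) and 2 in heme against neural induction (1.00%, against 3.38%).

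The split of a locus over its transcripts differed between libraries. Of the 25 genes listed with several transcripts, 11 (44.0%) had a different most abundant transcript in different libraries, against 60.8% of 3953 such loci in all. For Cdk1 the transcript ENSMUST00000119827 had 104.5 FPKM in heme, 14.7 and 109.8 FPKM in neural induction, and 109.2 and 6.25 FPKM in control. Neural induction replicate 1 and control replicate 2 were low, the same libraries that were low in the Cdk1 sum. ENSMUST00000152448 of Cdk1 was high in these libraries. It had 1.65 FPKM in heme, 16.7 and 0.73 FPKM in neural induction, and 2.2 and 41.3 FPKM in control. ENSMUST00000020099 of Cdk1 had 10.68 and 26.55 FPKM in control. The Cdk1 sum therefore fell less than ENSMUST00000119827 did, to 0.673-fold of the others in control replicate 2. For Aurka, ENSMUST00000109139 had 29.7 FPKM in heme, 32.7 and 30.6 FPKM in neural induction, and 26.1 and 2.35 FPKM in control. Control replicate 2 was again the low library for this transcript. ENSMUST00000109140 of Aurka was highest in that library. It had 5.78 FPKM in heme, 4.8 and 6.05 FPKM in neural induction, and 10.3 and 22.5 FPKM in control. The Aurka sum was 0.672-fold of the others in control replicate 2. For Anln, ENSMUST00000040912 had 45.3 FPKM in heme, 24.7 and 2.38 FPKM in neural induction, and 0.294 and 19.5 FPKM in control. High and low libraries occurred within both replicated groups. Tested one by one, 0 of the 82 transcripts of these genes that passed the filter were called by limma in any comparison. Of all 13737 transcripts, 0.0728% were called in heme and 0.00728% in neural induction against control, all lower, and 0.00728% higher and 0.0728% lower in heme against neural induction. An unadjusted p below 0.05 was reached by 2 transcripts of these genes in heme, by 4 in neural induction and by 4 in heme against neural induction, where 4.95%, 4.98% and 4.96% of all transcripts did. The 12 genes listed as 1 transcript had a median log2 difference of -0.55 in control replicate 2, against -0.54 for all 37.

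**Figure D5:**
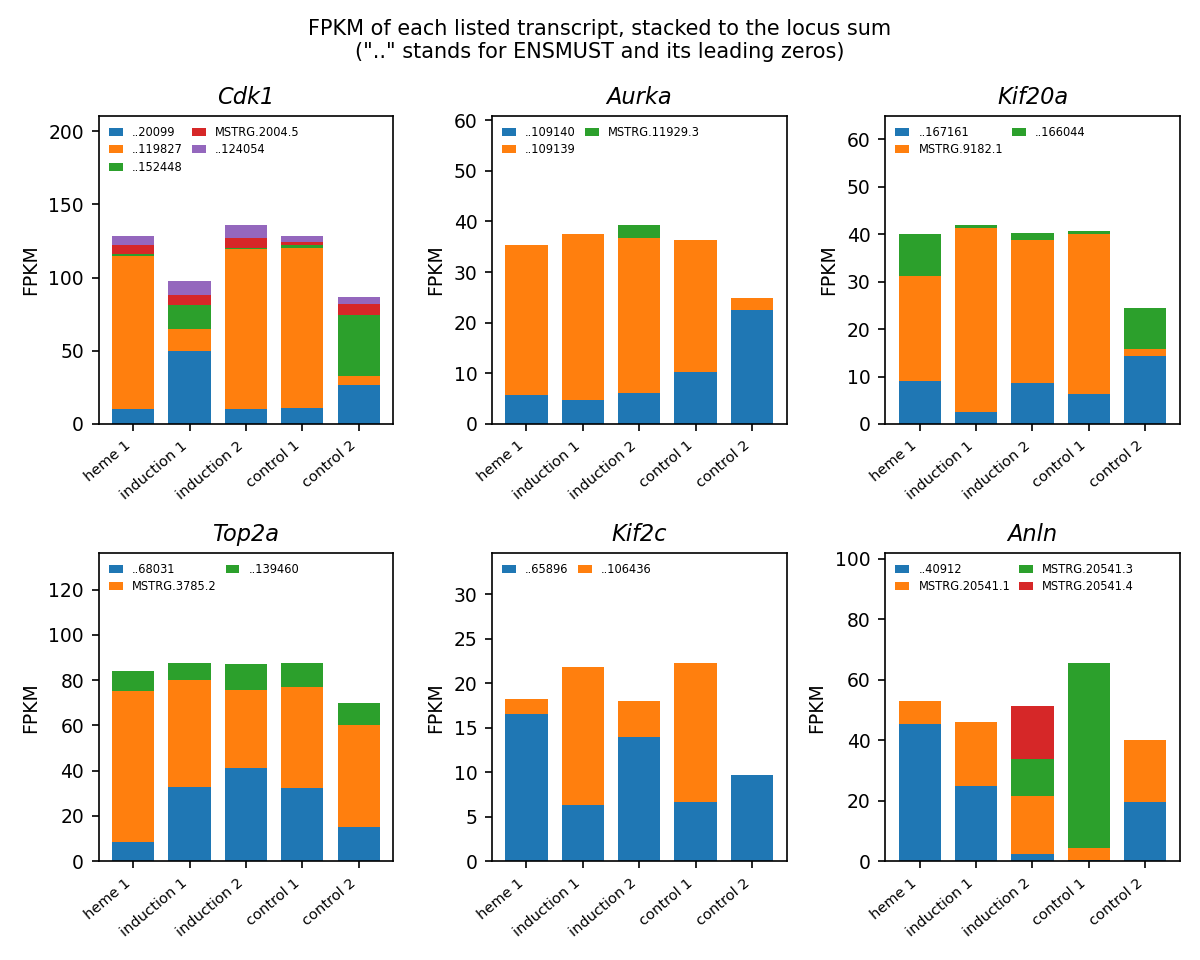
FPKM of each listed transcript of 6 genes, stacked to the locus sum, in the 5 libraries; the bars start at 0. The make-up of Cdk1, Aurka and Kif20a in control replicate 2 differs from that in control replicate 1, and for Anln it differs between most libraries.

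The authors' deposited table of heme against control gives unadjusted p-values, which were adjusted here by Benjamini-Hochberg over its 15113 transcripts. Below 0.05 after that adjustment, the authors' deposited table holds 7 transcripts of these genes, 3 higher and 4 lower out of 86, where 3.49% and 3.75% of all transcripts were higher and lower. Among these 7, Anln held the pair with the largest changes in the authors' deposited table, ENSMUST00000040912 at a log2 fold change of 6.74 and an unnamed transcript of the same locus at -8.95. The control replicates differed widely for both. ENSMUST00000040912 had 0.294 and 19.5 FPKM in control against 45.3 FPKM in heme. The unnamed transcript had 61.4 and 0 FPKM in control and 0 FPKM in heme. For neural induction, after the same adjustment, the authors' deposited table holds 4 higher and 3 lower, against 3.55% and 3.65% of transcripts. Of these, 3 belong to Cdk1, with ENSMUST00000119827 at a log2 fold change of -2.91 and ENSMUST00000020099 at 2.19. Over transcripts above 1 FPKM in both libraries, the log2 fold change of the authors' deposited table lay within 0.1 of the plain ratio of replicate 1 to control replicate 1 for 97.1% in heme and 97.2% in neural induction.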

How the data were processed

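RNA libraries were made with a TruSeq kit from 1 µg of total RNA, per the labels' protocols. The submitters' processing notes name HISAT2, StringTie and edgeR and the GRCm38 (mm10) build, without versions. The authors deposited FPKM and coverage per assembled transcript, and tables of log2 fold changes with unadjusted p-values and a score, which the file headers name LR beside a logCPM column. Those p-values were adjusted here. FPKM was summed over the listed transcripts of each StringTie locus. The ratio of coverage to FPKM gives the mapped bases of each library; the deposited signal holds no read counts, so no counting interval or count model was used.

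Across 13963 transcripts the second heme column was a multiple of the first, and both columns shared all 1150 zeros, whereas 1228 transcripts were at 0 in only 1 of the neural induction replicates. Replicate 1 was used, a departure from a fit on all 6 columns, which was run as an alternative. Tests used limma 3.58.1 in R 4.3.3 with an intensity trend, on log2(FPKM + 1), two-sided, with Benjamini-Hochberg adjustment over 7039 loci and a threshold of 0.05. The fit had 5 libraries and 2 residual degrees of freedom, and the lone heme library was assumed to vary like the others. Fold changes on this scale understate changes of low genes. The scripts were tested on simulated data.

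The members and gene lists were chosen with earlier results of these data known. Full values are given for 9 listed genes named in the rule, the 3 smallest p-values per comparison, and the 2 highest and 2 lowest ratios in control replicate 2. Other lists are given by counts and medians, with all regulators and examples chosen by value. The alternatives were a pseudocount of 0.1, other filters, median scaling, named transcripts, no trend, a replicate block and leaving out each library (heme for neural induction against control only, added after seeing the data).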

Additional observations from a re-analysis of the deposited data

How the results depend on the processing

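No gene of the group was called under any alternative except Nusap1, which in heme against control had a log2 fold change of 1.01 (limma adjusted p = 0.0166) when both heme columns were counted as replicates; that fit called 207 loci in heme and 51 in neural induction against control, and 210 in heme against neural induction. The single locus called in neural induction became 0 with a pseudocount of 0.1, with no filter and with named transcripts alone, 27 without the intensity trend and 2 with the replicate block. Leaving out 1 control or neural induction library left 0 called loci in each comparison, and so did leaving out heme for neural induction against control, an alternative added after seeing the data (from 0 to 0). At an unadjusted p below 0.05 these limma fits counted 204 to 1212 loci in heme and 202 to 1268 in neural induction against control, and 192 to 468 in heme against neural induction. The groups share replicate numbers, but the deviations of same-numbered libraries were uncorrelated (r = -0.05 over 7039 loci), so no pairing was assumed, and with the replicate block the calls were 4 in heme and 6 in heme against neural induction. The median of the group ranged, with 1 library left out, from -0.06 to 0.47 in heme and from -0.0081 to 0.48 in neural induction, lowest without control replicate 2 both times, and was 0.06 with the block in heme. Heme against neural induction changed its median to 0.17 with both heme columns and 0.18 with their mean.

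Signs that turned in heme against control were those of Top2a (-0.89, named transcripts), Kif11 (-0.0044, block), Spc25 (0.0745, block), Ect2 (0.0849 with both heme columns, 0.11 with their mean, 0.10 with named transcripts) and Mad2l1 (0.0755 and 0.0944 with both columns and their mean). Against neural induction, Ect2 (0.13, 0.15 and 0.0818) and Birc5 (0.13 and 0.15) turned. The second heme column is 1.25 to 1.5 times the first, so the settings that use it raise the heme values. For Top2a, the named transcripts leave out an unnamed transcript with 66.7 of the 83.9 FPKM in heme. Beyond this, the cause of these turns was not tested. With 1 library left out, the heme range was -0.0604 to 1.10 for Aspm, -0.17 to 0.50 for Ccnb1, -0.0948 to 0.60 for Cdc20, -0.0897 to 0.76 for Cenpf, -0.11 to 0.25 for Kif11, -0.0892 to 1.00 for Plk1 and -0.0582 to 0.26 for Top2a. In neural induction it was -0.0458 to 1.11 for Aspm, -0.15 to 0.41 for Cdk1, -0.0429 to 0.81 for Cenpf, -0.0091 to 0.34 for Kif11, -0.15 to 0.90 for Mki67, -0.0255 to 1.41 for Nusap1, -0.0760 to 1.01 for Plk1 and -0.31 to 0.58 for Spc25. Of the other values of named genes, 413 kept their direction and side of the threshold.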

Other observations

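Some genes outside the described group did separate heme and neural induction from control, though none passed the adjusted threshold. Over all loci, heme was above both controls for 25.5% and below both for 31.1%. Both neural induction libraries were above both controls for 18.2% of loci and below both for 13%. The share of loci where heme and neural induction did so together was not counted. Ube2s, the enzyme that lengthens ubiquitin chains for the anaphase-promoting complex, had 51.6 FPKM in heme, 53.1 and 57.0 FPKM in neural induction, and 80.6 and 70.1 FPKM in control, and every heme and neural induction library was below both controls. Its log2 fold change was -0.53 ± 0.13 in heme and -0.44 ± 0.10 in neural induction, with limma adjusted p of 0.912 and 0.935. Cks1b, a small CDK-binding protein, went the other way, with 97.2 FPKM in heme, 109 and 98.5 FPKM in neural induction, and 74.1 and 83.4 FPKM in control. Its log2 fold change was 0.30 ± 0.12 in heme and 0.39 ± 0.10 in neural induction.

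In other genes the libraries of 1 treatment lay farther from control, and none of them passed for heme against neural induction. Arhgap11a, a RhoA GTPase-activating protein of late mitosis, had 9.64 FPKM in heme, 19.6 and 17.6 FPKM in neural induction, and 11.6 and 10.9 FPKM in control, high in neural induction alone. Its log2 fold change was -0.20 ± 0.16 in heme and 0.68 ± 0.13 in neural induction, with limma adjusted p of 0.998 and 0.930. The locus shared by Rcc1, the exchange factor of the GTPase Ran, and the RNA gene Snhg3 had 39.1 FPKM in heme, 31.8 and 27.3 FPKM in neural induction, and 44.7 and 49.0 FPKM in control, and the sum does not separate the genes. Map2, the neuronal microtubule protein, had 18.6 FPKM in heme, 11.7 and 15.4 FPKM in neural induction, and 10.4 and 10.4 FPKM in control, with a log2 fold change of 0.78 ± 0.21 in heme (limma adjusted p = 0.989). With Tubb3, the other listed neuronal marker, the sum was 32.6 FPKM in heme and 23.22 and 29.04 FPKM in neural induction. The sum in control was 23.34 and 21.8 FPKM, so that neural induction replicate 1 was below control replicate 1. For heme against neural induction, the limma adjusted p was 0.642 for Arhgap11a and 1.0 for the Rcc1 locus and Map2. Except for Tubb3, these genes were taken for the smallest unadjusted p of their lists. Their distance from control is therefore a description of the libraries and not a test.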
